A study of Homo sapiens with 6 samples.

Results

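MARCKS, its paralog MARCKSL1 and HDAC2, the gene next to MARCKS on chromosome 6, were examined in 6 RNA-seq libraries of MOLT-4, an established human line of T-cell acute lymphoblastic leukemia (T-ALL). They are 3 of the 60640 gene identifiers in the deposited tables. Each was found by its gene symbol on 1 row per table. All 3 genes were chosen by their FPKM difference between the groups compared here, so their changes are given as a description and carry no test. The wild type group holds 3 libraries of the control line, whose labelled genotype is CRISPR KO control. The IK-KO group holds 3 libraries of a line in which IKZF1, the gene of the DNA-binding regulator IKAROS, was targeted with CRISPR-Cas. Both lines are MOLT-4, were grown in the same RPMI1640 medium with serum and received no other labelled agent. The comparison asks which transcripts differ when IKAROS is lost in human T-ALL. The edited line and its control were purchased, and the labels name no clone, so a difference that belongs to 1 clone and an effect of the edit cannot be told apart. The labels do not say that replicates are separate cultures, so every p-value below measures only the spread between these libraries.

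The values are FPKM, fragments scaled for transcript length and for library depth. This lets levels of different genes be set side by side, but other differences between transcripts can remain in them. The share of G and C in the coding sequence was 74.7% for MARCKS, 63.6% for MARCKSL1, 50.1% for HDAC1 and 39.3% for HDAC2. Its part in comparisons between genes was not tested. The libraries listed between 21254 and 21887 rows above 0, and their FPKM summed to between 699352 and 738051. Wild type replicate 3 had the lowest sum and 21 rows marked as not estimated, beside 1 to 7 in each other library. Without it the median log2 change over all tested genes was −0.01 in place of 0.02. The targeted gene was examined first. IKZF1 measured 134, 124 and 105 FPKM in wild type against 207, 260 and 207 FPKM in the IK-KO group. Its RNA was therefore higher, not lower (log2 change 0.89, limma adjusted p 0.00295), and its libraries are named by their label, as IK-KO-labelled libraries, throughout. The study's methods state that the knockout was checked by PCR and western blot, and protein was not measured in these libraries. All 16 T-lineage markers passed the filter on low values, and their FPKM summed to between 4993 and 5281 in wild type and between 5825 and 6297 in the IK-KO-labelled libraries. Of these markers 7 rose and 6 fell, which is 81.3% called beside 19.9% of all tested genes, with CD247, a chain of the T-cell receptor complex, rising most (log2 change 1.88) and the adhesion receptor CD2 falling most (log2 change −3.35). Summed markers of other cell types stayed at or below 3.66 FPKM for B cells, 0.744 for monocytes and macrophages, 0.688 for erythroid cells, 2.55 for neural cells and 0.229 for fibroblasts and epithelia, each as the highest library. HBB, ALAS2, S100A8, S100A9, FCGR3A, MAP2, COL1A2, COL3A1, EPCAM and KRT5 were listed at 0 in all 6 libraries. In bulk RNA, fewer cells of a kind and less RNA per cell cannot be told apart.

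MARCKS is a myristoylated protein on the inner face of the plasma membrane. A short, strongly basic stretch, the effector domain, lets it bind actin and shield the phospholipid PIP2, and it leaves the membrane when protein kinase C (PKC) phosphorylates that stretch or when calmodulin binds there. MARCKSL1 is a shorter relative with the same myristoylation signal and effector domain. Both are prominent in brain and are also made in blood cells, where they act on cell shape, adhesion and migration. HDAC2 is a class I histone deacetylase that works beside its paralog HDAC1 in the SIN3, NuRD, CoREST and MiDAC corepressor complexes.

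MARCKS (ENSG00000277443.3) lies on chromosome 6 at 113857345 to 113863475 on the plus strand (GRCh38). HDAC2 (ENSG00000196591.12) lies on the minus strand at 113933028 to 114011308, so that the genes point at each other across a gap of 69552 bases. MARCKSL1 (ENSG00000175130.7) occupies chromosome 1 at 32333839 to 32336233 on the minus strand. The same order recurs there: HDAC1 (ENSG00000116478.12, plus strand, 32292083 to 32333635) ends 203 bases from the end of MARCKSL1. Chromosomes 6 and 1 thus each carry a MARCKS family gene and a class I deacetylase gene, tail to tail.

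The stretch that encodes the effector domain is shown for both paralogs, since their likeness bears on how far their fragments could be mixed. The 25 codons of MARCKS with the most lysine and arginine codons, which encode this domain, are codons 152 to 176 in exon 2 of 2 (chr6:113860034-113860108, plus strand). The best matching 25 codons of MARCKSL1 are codons 86 to 110, also in exon 2 of 2 (chr1:32334855-32334929, minus strand). They are shown here from GENCODE 44 transcripts, 5′ to 3′ in the gene's direction, with the 20 of 75 bases that differ in capitals.
MARCKS: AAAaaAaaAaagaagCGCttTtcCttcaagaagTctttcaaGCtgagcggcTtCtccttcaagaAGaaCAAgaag
MARCKSL1: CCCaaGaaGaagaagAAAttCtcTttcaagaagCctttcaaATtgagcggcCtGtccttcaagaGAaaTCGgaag
Of these codons 13 in MARCKS and 12 in MARCKSL1 are lysine or arginine codons. Over the whole transcripts the longest run of identical bases was 20. HDAC2 and HDAC1 shared no identical run longer than 17 bases.

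MARCKS and HDAC2 differed in the same direction, so their promoters were compared, with that of MARCKSL1 beside them. The 250 bases before each start site are given from the RefSeq promoter table (GRCh38.p14), 5′ to 3′ on the gene's strand. They cover chr6:113857095-113857344 (plus) for MARCKS, chr6:113971149-113971398 (minus) for HDAC2 and chr1:32336234-32336483 (minus) for MARCKSL1. The start in that table is the 5′ end of the measured row for MARCKS and MARCKSL1 and lies 40.2 kb inside the measured row for HDAC2. Capitals mark the CCAAT box (those letters) and the GC box (GGGCGG) on either strand.
MARCKS: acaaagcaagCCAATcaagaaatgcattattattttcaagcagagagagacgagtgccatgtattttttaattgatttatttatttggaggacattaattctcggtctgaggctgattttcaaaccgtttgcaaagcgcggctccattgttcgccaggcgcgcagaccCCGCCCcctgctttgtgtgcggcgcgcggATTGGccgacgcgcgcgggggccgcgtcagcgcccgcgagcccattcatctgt
HDAC2: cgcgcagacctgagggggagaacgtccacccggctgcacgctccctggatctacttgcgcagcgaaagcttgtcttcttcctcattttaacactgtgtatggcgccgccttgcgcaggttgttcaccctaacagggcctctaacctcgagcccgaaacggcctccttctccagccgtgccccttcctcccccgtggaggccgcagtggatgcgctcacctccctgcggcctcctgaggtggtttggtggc
MARCKSL1: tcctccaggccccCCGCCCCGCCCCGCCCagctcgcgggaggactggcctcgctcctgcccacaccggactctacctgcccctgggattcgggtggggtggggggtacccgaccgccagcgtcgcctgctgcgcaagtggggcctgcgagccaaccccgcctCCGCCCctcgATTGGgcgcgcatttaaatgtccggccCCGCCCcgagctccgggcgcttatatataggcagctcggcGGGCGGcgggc
The letters GGGAA, the core that IKAROS is known to bind, were searched on both strands. They occur in none of these windows, nor in that of HDAC1, so the longer form with a T before them is absent too. Of 35114 promoters of the same length, 59.0% hold the core and 20.8% the longer form. The CCAAT box occurred 2 times in the MARCKS window, 1 time in that of MARCKSL1 and 0 times in that of HDAC2, and 32.0% of promoters hold it. The GC box occurred 1 time for MARCKS, 6 times for MARCKSL1 and 0 times for HDAC2, and 42.6% of promoters hold it. Some GC boxes of MARCKSL1 overlap. The GC content of the windows was 52.8% for MARCKS, 63.2% for HDAC2 and 74.0% for MARCKSL1, beside a median of 58.0% over all promoters. Both boxes were chosen after the sequences had been seen. These matches describe letters only, and binding was not measured in these libraries.

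MARCKS RNA was near the low end of the tested genes in wild type and well inside their upper range in the IK-KO-labelled libraries. Wild type replicates 1 to 3 were listed at 1.50, 1.24 and 1.29 FPKM, and IK-KO-labelled replicates 1 to 3 at 27.1, 27.5 and 26.1 FPKM. All 3 of the latter were high, all 3 of the former low, and the groups lay far apart. The group mean was 1.34 ± 0.136 FPKM across wild type and 26.9 ± 0.729 FPKM across the IK-KO-labelled libraries (SD, n = 3 each), a ratio of 20.01. The lowest IK-KO-labelled library held 17.4 times the FPKM of the highest wild type library. On the log2(FPKM + 1) scale the change was 3.57 (SE 0.09). Among the 12652 tested genes this change ranked 3 in the upward direction. This scale understates the change of a gene with low FPKM, and the log2 ratio of the mean FPKM was 4.32. In wild type 5.81% of tested genes had a lower mean level than MARCKS, and in the IK-KO-labelled libraries 72.8% had.

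The low wild type level of MARCKS was measured less precisely than the higher level, but its bounds stayed above 0. Their half-width was 17.3% to 19.4% of the value in wild type and 3.98% to 4.29% in the IK-KO-labelled libraries. Confidence bounds in the tables ran from 1.24 to 1.76 FPKM in wild type replicate 1, from 1.01 to 1.47 FPKM in replicate 2 and from 1.04 to 1.54 FPKM in replicate 3. The gene has 1 annotated transcript, and for such genes the width of the bounds follows the number of fragments. That width corresponds to 134, 117 and 106 fragments in wild type and to 2176, 2501 and 2521 in the IK-KO-labelled libraries. Read this way, the wild type values rest on at least 106 fragments each. The annotation used in counting is not given, so these fragment numbers are estimates. The bounds cover counting error only.

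MARCKSL1 was the most abundant of these genes in both groups. It measured 229, 222 and 219 FPKM in wild type against 331, 339 and 351 FPKM in the IK-KO-labelled libraries. Each IK-KO-labelled library exceeded each wild type library, by at least 1.44 times. The mean was 223 ± 5.34 FPKM (SD, n = 3) against 341 ± 10.1 FPKM (SD, n = 3), a ratio of 1.52 and a log2 change of 0.61 (SE 0.04). Its rank by level among the 12652 tested genes moved from 359 to 248. The bounds correspond to between 5532 and 6333 fragments in wild type and between 8009 and 10392 in the IK-KO-labelled libraries, so counting error was small beside the difference.

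HDAC2 was also higher in each IK-KO-labelled library. Its FPKM was 144, 155 and 139 in wild type and 257, 253 and 247 in the IK-KO-labelled libraries. The groups did not overlap, and the lowest of the latter was 1.59 times the highest of the former. The mean was 146 ± 8.35 FPKM (SD, n = 3) against 252 ± 5.30 FPKM (SD, n = 3), a ratio of 1.73 and a log2 change of 0.79 (SE 0.05). HDAC2 has 17 annotated transcripts, so its bounds, which lay within 5.49% of the value in every library, also hold the uncertainty of assigning fragments to transcripts. Across all tested genes, 20.9% had every IK-KO-labelled library above every wild type library. All 3 genes described here did so by the way they were chosen.

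HDAC1, which sits beside MARCKSL1 as HDAC2 sits beside MARCKS, is not among the chosen genes and could be tested. It measured 144, 149 and 147 FPKM in wild type against 161, 159 and 158 FPKM in the IK-KO-labelled libraries. The groups did not overlap, but the difference was small: the mean was 147 ± 2.62 against 159 ± 1.60 FPKM (SD, n = 3), equal to a log2 change of 0.12 with an SE of 0.04 (limma adjusted p 0.0900). That change missed the threshold of 0.05 in the fit over all genes.

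**Figure D1:**
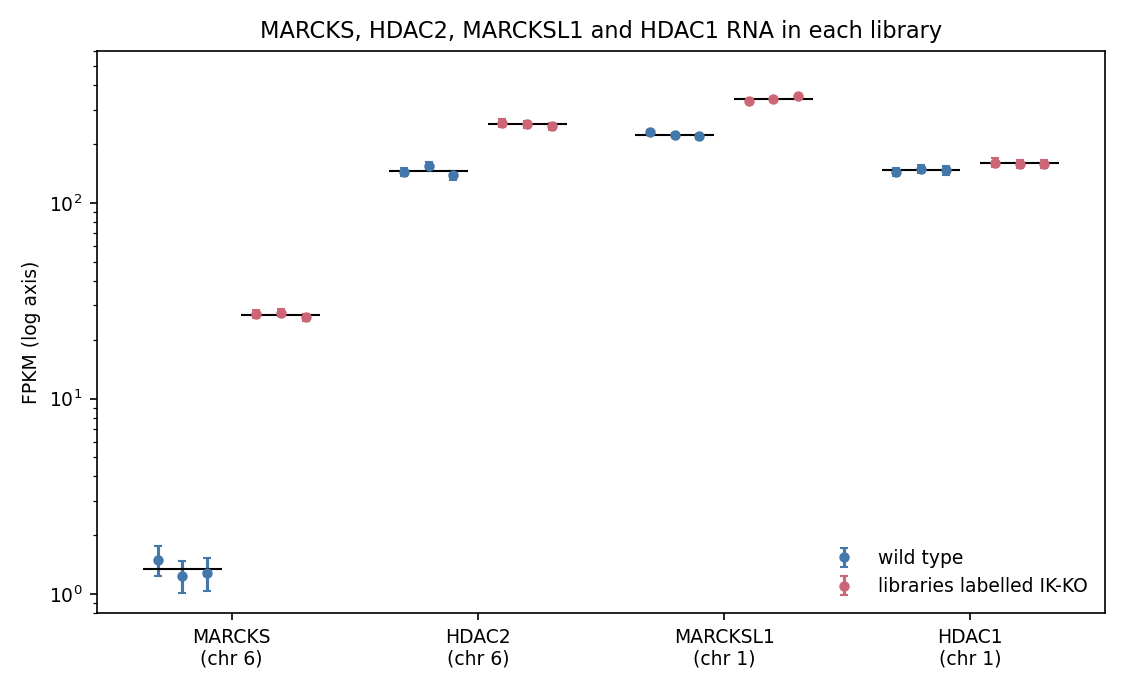
FPKM (log axis) of MARCKS, HDAC2, MARCKSL1 and HDAC1 in each of the 3 wild type libraries and the 3 IK-KO-labelled libraries; points are libraries, bars are the confidence bounds in the tables and black lines are group means. The mean of MARCKS was 1.34 FPKM in wild type and 26.9 in the IK-KO-labelled libraries, that of HDAC2 146 and 252, that of MARCKSL1 223 and 341, and that of HDAC1 147 and 159.

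The order of levels differed between the groups. In wild type MARCKSL1 was highest, HDAC1 and HDAC2 were not separated (their libraries interleaved between 139 and 155 FPKM), and MARCKS was lowest. In the IK-KO-labelled libraries the order was MARCKSL1, HDAC2, HDAC1 and MARCKS, with no overlap between neighbours in that order. HDAC2 over HDAC1 was 0.993 ± 0.0481 (SD, n = 3) in wild type and 1.58 ± 0.0180 (SD, n = 3) in the IK-KO-labelled libraries. HDAC2 made up 41.0 ± 1.01% of the summed FPKM of the class I genes HDAC1, HDAC2, HDAC3 and HDAC8 in wild type and 53.1 ± 0.466% (SD, n = 3) in the IK-KO-labelled libraries. The sum itself was 356 ± 12.7 and 475 ± 6.06 FPKM.

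Despite its large ratio, MARCKS remained the minor member of its family. It contributed 0.597 ± 0.0470% (SD, n = 3) of the summed FPKM of MARCKS and MARCKSL1 in wild type and 7.33 ± 0.362% (SD, n = 3) in the IK-KO-labelled libraries. MARCKSL1 exceeded MARCKS 167 ± 12.9 times in wild type and 12.7 ± 0.695 times in the IK-KO-labelled libraries. MARCKSL1 also accounted for more of the difference in FPKM, and the sum of both was 225 ± 5.46 FPKM in wild type beside 368 ± 9.55 FPKM in the IK-KO-labelled libraries (SD, n = 3).

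Rows between MARCKS and HDAC2, and pseudogene copies of MARCKSL1 and HDAC1, were low. Between MARCKS and HDAC2 lie the long noncoding RNA MROCKI, listed at 0 in every wild type library and reaching 0, 0.0536 and 0.0168 FPKM in IK-KO-labelled replicates 1 to 3, and FO393415.1, listed at 0 in all 6. HDAC2-AS2, an antisense RNA that starts within HDAC2, measured 1.22, 0.665 and 1.94 FPKM in wild type against 3.06, 3.74 and 3.33 FPKM in the IK-KO-labelled libraries (log2 change 0.98, SE 0.22, limma adjusted p 0.0210). It lost its call without wild type replicate 1 or any 1 of the IK-KO-labelled replicates (limma adjusted p from 0.0524 to 0.0738). Whether strand was used in counting is not given in the sources used here, and 69 of the 15333 annotated exon bases of HDAC2 are also exon of HDAC2-AS2, so reads from the pair cannot be told apart there. The pseudogene MARCKSL1P2 was listed at 0.397 FPKM in wild type replicate 1 and at 0 elsewhere, and MARCKSL1P1, HDAC1P1 and HDAC1P2 at 0 in all 6 libraries. MARCKSL1 shares runs of up to 35 bases with MARCKSL1P2 and of up to 31 bases with MARCKSL1P1.

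Most genes around MARCKS and HDAC2 were higher in the IK-KO-labelled libraries as well, none of them by as much as MARCKS. Among the 10 nearest tested genes on each side, which span 6.62 Mb, 16 of 20 were higher, where 52.7% of all tested genes were. Of the 20, 6 rose and 3 fell, beside 10.1% and 9.75% of all tested genes. Of the tested genes of chromosome 6, 74.5% were higher, 29.6% rose and 5.95% fell. On the log2(FPKM + 1) scale none of the 20 reached a 2-fold change, which 3.19% of all tested genes passed together with the test, although the mean FPKM of HDAC2-AS2 differed 2.65 times. Their log2 changes ran from −0.75 to 0.98 with a median of 0.22, beside a median of 0.02 over all tested genes. The locus is sparse, since apart from HDAC2-AS2 the nearest tested genes lie 1755 kb to the left (FAM229B) and 2090 kb to the right (NT5DC1). FYN, a SRC family kinase of T cells, measured 72.5, 74.1 and 69.5 FPKM in wild type against 132, 134 and 135 FPKM in the IK-KO-labelled libraries. Its log2 change of 0.88 (SE 0.05, limma adjusted p 6.57e-05) was close in size to that of HDAC2. TUBE1, which encodes epsilon-tubulin, rose by 0.49 on the log2 scale, and TSPYL4 by 0.59 (limma adjusted p 0.00474 and 0.00456). NT5DC1 went the other way, with a log2 change of −0.59 (limma adjusted p 0.00358), and FAM229B did not pass the test (log2 change −0.27, limma adjusted p 0.258). With the median of these neighbours removed, the log2 change was 3.35 for MARCKS and 0.56 for HDAC2. Leaving out each library in turn lowered the 9 called neighbours to between 6 and 7.

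Around HDAC1 and MARCKSL1, 14 of the 20 nearest tested genes, which span 1.17 Mb, were higher in the IK-KO-labelled libraries, beside 52.7% of all tested genes. Of these 20, 4 rose and 0 fell, beside 10.1% and 9.75% of all tested genes, and the median log2 change was 0.06. The 4 were PTP4A2, ZBTB8A, RBBP4 and YARS1, at log2 changes of 0.32, 0.50, 0.27 and 0.34. Of the tested genes of chromosome 1, 59.6% were higher, 13.6% rose and 6.74% fell. LCK, the other major SRC family kinase of T cells, was the nearest tested gene on the HDAC1 side and did not pass the test (log2 change 0.07, limma adjusted p 0.327). EIF3I and TMEM234 followed at −0.07 and 0.08 on the log2 scale, and neither passed. On the MARCKSL1 side, BSDC1 (0.03) and FAM229A (−0.39) did not pass the test either. TSSK3 had a log2 change of 0.85 that rested on IK-KO-labelled replicate 2, at 6.93 FPKM where the other 5 libraries were below 1 (limma adjusted p 0.343). The number called fell to 2 without wild type replicate 1 or without any 1 of the IK-KO-labelled replicates, and ZBTB8A lost its call without any 1 of the 6 libraries. With the neighbours' median removed, the log2 change was 0.54 for MARCKSL1 and 0.05 for HDAC1.

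**Figure D2:**
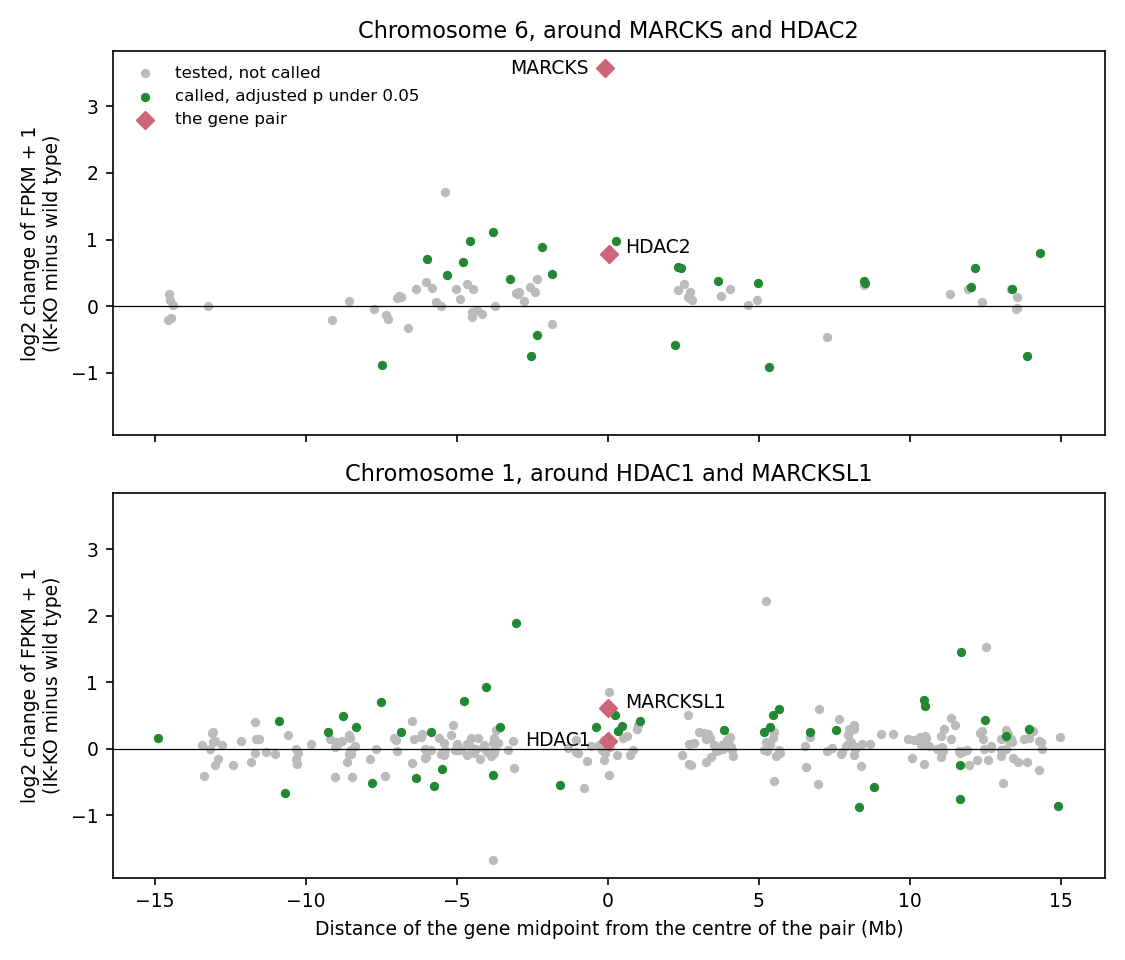
Log2 change of FPKM + 1 (IK-KO-labelled libraries minus wild type) of tested genes within 15 Mb of the MARCKS and HDAC2 pair (83 genes, upper panel) and of the HDAC1 and MARCKSL1 pair (278 genes, lower panel), against distance in Mb from the centre of each pair; green points were called at an adjusted p under 0.05. MARCKS stands at 3.57 above every other gene in its panel, HDAC2 at 0.79 lies among the higher neighbours, and MARCKSL1 at 0.61 lies above HDAC1 at 0.12.

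Chromosome 6 was shifted over most of its length. Of its 655 tested genes 74.5% were higher in the IK-KO-labelled libraries, and its median log2 change of 0.21 was the highest of the 23 chromosomes compared (1 to 22 and X). The median was −0.35 on chromosome 9 and between −0.02 and 0.06 on the other 21. The shift was not even along chromosome 6. Windows of 20 Mb had medians of 0.25, 0.25 and 0.26 from 0 to 60 Mb, 0.03 (19 genes) from 60 to 80 Mb and −0.01 from 80 to 100 Mb. The median was 0.19 from 100 to 120 Mb, where MARCKS and HDAC2 lie. The windows from 120 to 180 Mb had medians of 0.16, 0.17 and 0.18. Ranked by upward change among the genes of the chromosome, MARCKS was 1 and HDAC2 was 46. MARCKSL1 ranked 71 of the 1246 tested genes of chromosome 1, where 59.6% were higher. With the median of its own chromosome removed, the log2 change was 3.37 for MARCKS, 0.58 for HDAC2 and 0.55 for MARCKSL1. DNA copy number was not measured in these libraries, and its part in these values was not tested.

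Pairs of paralogs on chromosomes 6 and 1 were compared further, since MARCKS with MARCKSL1 and HDAC2 with HDAC1 belong to a larger set of gene pairs that these chromosomes share. Of 13 other pairs listed by hand, 6 genes on chromosome 6 and 6 on chromosome 1 were tested. On chromosome 6, FYN and SERINC1 (log2 change 0.35, limma adjusted p 0.0152) rose and 0 genes fell. On chromosome 1, SESN2 (log2 change 0.93, limma adjusted p 0.000619) and PTP4A2 (0.32, 0.0363) rose and 0 genes fell. Of all tested genes of these chromosomes, 29.6% rose and 5.95% fell on chromosome 6, and 13.6% rose and 6.74% fell on chromosome 1. PTP4A2 lost its call without wild type replicate 1 or any 1 of the IK-KO-labelled replicates, and SERINC1 without IK-KO-labelled replicate 1 or 2. Both members of a pair were tested in 5 of the 13. FYN changed and LCK did not pass the test, while SESN2, a stress-induced sestrin, rose and SESN1 did not pass (0.10). Differences between the members of a pair were not tested. EPB41L2, EPB41, PTP4A1 and TXLNA had log2 changes of 0.20, −0.02, 0.07 and 0.13, and none of these 4 was called.

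**Figure D3:**
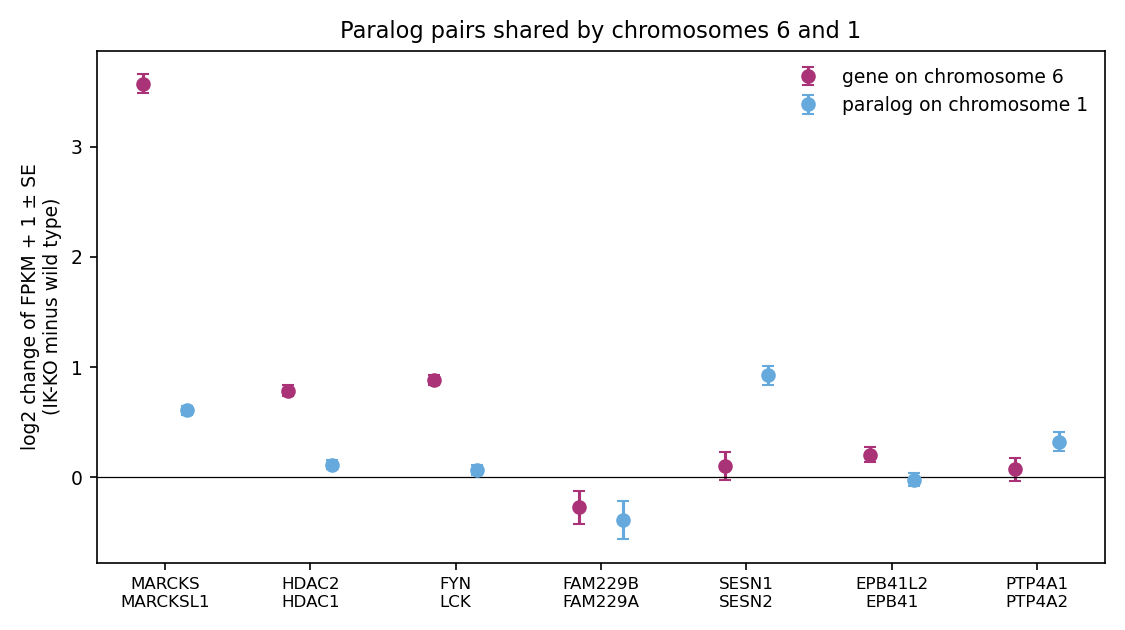
Log2 change of FPKM + 1 ± SE (IK-KO-labelled libraries minus wild type) of the 7 paralog pairs in which both genes were tested, with the chromosome 6 gene named above its chromosome 1 paralog. MARCKS (3.57) and MARCKSL1 (0.61) are both above 0, HDAC2 (0.79) and FYN (0.88) stand above HDAC1 (0.12) and LCK (0.07), and SESN2 (0.93) stands above SESN1 (0.10).

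Genes known to act on or with MARCKS were followed in lists written by hand. Over the 7 lists on MARCKS and HDAC2 biology, 121 of 139 genes were tested apart from the chosen genes, and 32 were called, which is 26.4% beside 19.9% of all tested genes. Of these 15 rose and 17 fell, and the median log2 change was 0.01. Among the kinases that phosphorylate MARCKS, 3 of 8 tested PKC and ROCK genes fell and 0 rose (median −0.13). Over all tested genes 9.75% fell and 10.1% rose. PRKCH, encoding PKC eta, measured 26.4, 31.5 and 26.7 FPKM in wild type against 2.32, 0.744 and 0.658 FPKM in the IK-KO-labelled libraries, a log2 change of −3.78 (limma adjusted p 0.000185). PRKCB fell by 0.93 and PRKCA by 0.27 on the log2 scale (limma adjusted p 0.00415 and 0.0248). PRKCA lost its call without any 1 of the 6 libraries (limma adjusted p up to 0.0787), and PRKCH and PRKCB kept theirs. PRKCQ, PRKCI and PRKCE did not pass the test (log2 changes −0.14, 0.19 and −0.01). PRKCD, at means of 1.54 FPKM in wild type and 0.336 FPKM in the IK-KO-labelled libraries, and PRKCZ, at a mean of 0.377 FPKM in wild type, were too low to be tested. The activity of these kinases was not measured.

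The enzymes that attach myristate to MARCKS moved in opposite directions. NMT2 rose from 14.8 ± 1.80 to 22.8 ± 1.03 FPKM (SD, n = 3), equal to a log2 change of 0.60, and NMT1 fell from 50.8 ± 4.30 to 37.1 ± 3.35 FPKM (SD, n = 3), equal to a log2 change of −0.44 (limma adjusted p 0.00568 and 0.0136). NMT1 lost its call without wild type replicate 1. The calmodulin genes CALM2 and CALM3 did not pass the test. The list of functional relatives held little RNA besides the adducins, membrane skeleton proteins that PKC also phosphorylates. GAP43 was listed at 0 in all 6 libraries, and BASP1 at 0 in wild type and at a mean of 0.0408 FPKM in the IK-KO-labelled libraries. ADD1 and ADD3 were tested and 0 were called by limma, at log2 changes of 0.09 and −0.45, though 1 of these 2 had an unadjusted p under 0.05, as 33.4% of all tested genes did. Without wild type replicate 3 ADD3 was called (log2 change −0.61, limma adjusted p 0.0224).

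Among the genes of metabolism of PIP2, the lipid that MARCKS shields, 8 of 31 tested fell and 1 rose, beside 9.75% and 10.1% of all tested genes, with a median log2 change of −0.08. The largest fall was in PLCB2, a phospholipase C that cleaves PIP2, which measured 10.1, 9.74 and 13.0 FPKM in wild type against 2.82, 3.54 and 1.75 FPKM in the IK-KO-labelled libraries (log2 change −1.71, limma adjusted p 0.00163). Phospholipases PLCH1 and PLCG2 changed by −1.68 and −1.18, and the kinase gene PIK3CG by −0.84. The 1 rise was PIP4K2A, a PIP kinase, at a log2 change of 0.43 (limma adjusted p 0.0481), and it lost its call in 10 of 14 alternative fits, among them 5 of the 6 that left out a library (limma adjusted p up to 0.147). Among the falls, PI4KA lost its call in 9 of the 14, including all 6 that left out a library, and PIP4K2C in 4 of those 6. PLCG1, the phospholipase C that signals below the T-cell receptor, was at 138 and 139 FPKM and was not called.

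Among genes of the cortical actin network 5 of 32 tested rose and 4 fell, beside 10.1% and 9.75% of all tested genes (median log2 change −0.05). The actin crosslinker ACTN1 rose from 12.6 ± 1.13 to 33.5 ± 0.311 FPKM (SD, n = 3), equal to a log2 change of 1.35 (limma adjusted p 9.99e-05). The filamin FLNA rose by 0.68 on the log2 scale, vinculin (VCL) by 0.60 and ezrin (EZR) by 0.26. TLN1, encoding the integrin-binding talin, fell from 54.8 ± 6.59 to 26.5 ± 3.65 FPKM (SD, n = 3), equal to a log2 change of −1.03 (limma adjusted p 0.00167). DSTN, RDX and SPTAN1 changed by −0.76, −0.57 and −0.28. TLN1 and SPTAN1 lie on chromosome 9, where 46.9% of tested genes fell, and EZR on chromosome 6, where 29.6% rose. RDX lost its call in 5 and SPTAN1 in 3 of the 6 fits that left out a library. Actin itself, ACTB and ACTG1, was not called, though without wild type replicate 3 ACTB was (log2 change −0.21, limma adjusted p 0.0372). Leaving out each library in turn gave 7 to 13 called genes of this list in place of 9. The 13 came without wild type replicate 3, where PFN2, FLII, MSN and CAPZA1 were also newly called lower and RDX lost its call.

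Besides HDAC2, 0 of the 9 other tested histone deacetylase genes were called by limma, and 4 of the 9 had an unadjusted p under 0.05, beside 19.9% and 33.4% of all tested genes. HDAC3 and HDAC8, the remaining class I genes, had log2 changes of 0.06 and −0.14 (limma adjusted p 0.492 and 0.429). HDAC9 was too low to be tested. It measured 0.175, 0.210 and 0.165 FPKM in wild type against 2.11, 0.823 and 1.94 FPKM in the IK-KO-labelled libraries. The class II gene HDAC4 was at means of 52.0 and 30.3 FPKM with a limma adjusted p of 0.0826. It was called without IK-KO-labelled replicate 2 (log2 change −1.13, limma adjusted p 0.0128), and HDAC5 was called without IK-KO-labelled replicate 3 (log2 change 0.57, limma adjusted p 0.0355).

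Among the partners of HDAC2 in its complexes 27 of 32 tested were higher, beside 52.7% of all tested genes. Of the 32, 8 rose and 1 fell, beside 10.1% and 9.75%, and the median log2 change was 0.15 beside 0.02. RCOR2, a CoREST subunit, rose most (1.50 ± 0.316 to 4.35 ± 0.526 FPKM (SD, n = 3), log2 change 1.10, limma adjusted p 0.00307). The others that rose were CDK2AP1, ING1, SINHCAF, CHD4, RBBP4, KDM1A and MTA3, at log2 changes from 0.24 to 0.48. MTA3 lost its call in 5 of the 6 fits that left out a library, SINHCAF in 2, and ING1 and KDM1A in 1 each. CHD3, a NuRD remodeller, fell from 20.7 ± 1.02 to 12.5 ± 0.877 FPKM (SD, n = 3), while its relative CHD4 rose from a mean of 110 to 137 FPKM. The limma adjusted p was 0.00135 for CHD3 and 0.00753 for CHD4. RBBP4, shared by the SIN3 and NuRD complexes, is also 1 of the neighbours of MARCKSL1 that rose.

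**Figure D4:**
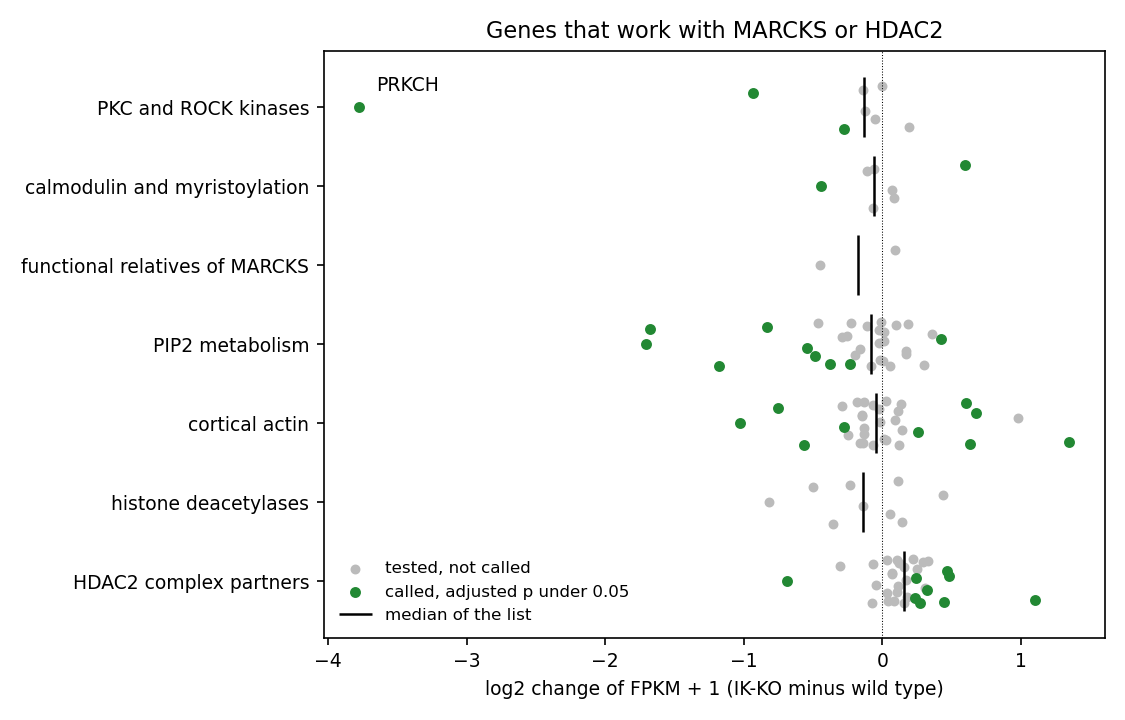
Log2 change of FPKM + 1 (IK-KO-labelled libraries minus wild type) of the tested genes in 7 lists of genes that work with MARCKS or HDAC2, with MARCKS, MARCKSL1 and HDAC2 left out; points are genes, green ones called at an adjusted p under 0.05, and black lines are list medians. PIP2 metabolism holds 8 falls and 1 rise, HDAC2 complex partners hold 8 rises and 1 fall, and PRKCH stands lowest at −3.78.

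Profiles most like those of the 3 genes were sought over the 6 libraries, by the root mean square difference of centred log2(FPKM + 1) values. With 2 groups of 3 libraries, likeness mostly follows the group difference, so this lists genes with a change of like size. MARCKS was closest to TMEM132A (0.176) and FXYD6 (0.240), followed by SLC18A2 (0.467), GPR183 (0.484) and SERPINB1 (0.671). TMEM132A measured 0.668, 0.758 and 0.966 FPKM in wild type against 16.6, 17.5 and 15.8 FPKM in the IK-KO-labelled libraries, so that it shared with MARCKS both the low start and the ratio. Of these 5 genes SERPINB1 alone lies on chromosome 6. HDAC2 was closest to ICK (0.0317), then to AP005482.2, CCSAP, the amino acid transporter gene SLC7A5 and CMPK2 (0.0396 to 0.0486), and MARCKSL1 to GSTM3 (0.0317), then to STAT3, SH3KBP1, EHMT2 and MTHFD2 (0.0355 to 0.0417). The nearest genes thus lay farther from MARCKS than from HDAC2 and MARCKSL1, whose matches lie on several chromosomes. The closest of these, ICK on chromosome 6 and GSTM3 on chromosome 1, each share the chromosome of the gene matched. The further matches of HDAC2 and MARCKSL1 do not.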

How the data were processed

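Polyadenylated RNA of 3 wild type and 3 IK-KO libraries of MOLT-4 was sequenced. The authors deposited 1 gene table per library, holding FPKM and both confidence bounds. The submitters' processing notes list STAR 2.6.1c, Cufflinks 2.2.1, HOMER 4.10 and hg38, with no role given, and the study's own RNA-seq methods name a mouse genome and other settings. Strand setting and annotation are not given in the sources used here. Counts were not used here, so no count model was used, and depth is known only from the bounds of single-transcript genes, read as ± 2 SD.

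Rows of 1 identifier were summed (110 identifiers), and the 29 identifiers marked as not estimated in at least 1 library were left out. Log2(FPKM + 1) was fitted with limma 3.58.1 (R 4.3.3; lmFit, eBayes with trend; two-sided; Benjamini-Hochberg) over 12652 genes (mean FPKM 1 or more). Called means an adjusted p under 0.05, and rose and fell are used for called genes only. Non-overlap means that every library of one group exceeds every library of the other. The fit was tested on simulated data. Python 3.11.15, pandas 2.3.3 and matplotlib 3.10.9 did the rest.

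MARCKS, HDAC2, MARCKSL1, all gene lists, the paralog pairs and the tests were chosen with earlier results of these data known. Named by rule were IKZF1, HDAC1 to HDAC3, HDAC8, the listed PKC genes, GAP43 and BASP1 whatever their values, the largest called rise and fall of each list, the 3 nearest tested genes on each side of a pair, rows between or overlapping the genes, the 5 most alike profiles per gene and the tested paralogs. Other names were chosen after their values were seen. Some listed genes are not reported here by name. Same-numbered replicates did not deviate together (r 0.0669, 0.0248 and 0.00546), so numbers were not used as pairs. Transcripts came from GENCODE 44 and promoters from RefSeq (4 of 4 genes matched). Proteins were not compared here.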

Additional observations from a re-analysis of the deposited data

How the results depend on the processing

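The changes of MARCKS, HDAC2 and MARCKSL1 kept their direction under every alternative tried, and leaving out each library in turn gave 3.54 to 3.62 for MARCKS, 0.75 to 0.83 for HDAC2, 0.58 to 0.63 for MARCKSL1 and 0.10 to 0.13 for HDAC1, which was called in none. The size for MARCKS depends on the pseudocount by construction, at 4.23 with a pseudocount of 0.1 and 2.33 with 5. Removing the neighbours' median gave 3.35 for MARCKS, 0.56 for HDAC2 and 0.54 for MARCKSL1. Removing the chromosome median, an alternative chosen after seeing the data, gave 3.37, 0.58 and 0.55. With the replicate number as a block the changes of MARCKS, HDAC2 and MARCKSL1 were again 3.57, 0.79 and 0.61, the adjusted p of HDAC1 was 0.173, and 1805 genes were called in place of 2515. Leaving out 1 library gave 1692 to 2004. The number was 4227 at an unadjusted p and 404 with a 2-fold limit, where 34.2% of calls were higher in place of 51.0%. Of the neighbours of HDAC1 and MARCKSL1, 2 were called in place of 4 without the filter on low values and with the block, 2 to 3 without 1 library, and 1 of 10 with 5 genes on each side. Of the neighbours of MARCKS and HDAC2, 7 of 10 were called with 5 on each side, and 8 of 19 without HDAC2-AS2, which was also left out after seeing the data. HDAC4 and ADD3 were called with the block (adjusted p 0.0151 and 0.0230), ADD3 and EPB41L2 with median-ratio scaling (0.0470 and 0.0391) and CALM3 with mitochondrial transcripts left out (0.0306). Without the filter on low values 5 of 11 PKC and ROCK genes were called, beside 2011 of all 27286 genes tested that way. Depth limits what can be said of PRKCZ, GAP43, BASP1 and MROCKI, which lie near 0.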
